A study of Mus musculus with 25 samples.

Results

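Tumour cells sorted from grafted HRas-bearing mouse skin tumours were compared with 2 populations of skin stem cells at the level of RNA. The comparison was defined by the libraries and not by measured values, and it took 4 of the 25 samples of the series, 21 of which are RNA libraries. The tumour arm held 1 library of HRas tumour cells and 1 of HRas TbrKO tumour cells, both sorted as GFP positive with high surface integrin alpha 6. The stem cell arm held 1 library of hair follicle stem cells (HFSC) and 1 of epidermal stem cells (EpdSC), both titled Tbr and both sorted as lineage negative with high integrin alpha 6. The HFSC gate took CD34+Sca1- cells and the EpdSC gate CD34-Sca1+ cells. All 4 libraries came from female mice of strain B6. The labels give postnatal day 60, but what that age means for the grafted tumours is not clear. The labels do not spell out which gene or allele Tbr stands for, what drives HRas or GFP, or how many animals went into a library. Each combination of genotype and cell type had 1 library, so the spread within an arm is the difference between 2 tumour genotypes or between 2 stem cell lineages, and p-values measure only that spread.

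Squamous cell carcinoma is a tumour of keratinocytes, the cells of stratified epithelium. The cells that renew normal skin sit on a basement membrane, which they grip through hemidesmosomes built around integrin alpha 6 beta 4. HFSC lie in the bulge of the hair follicle and are mostly at rest, while EpdSC lie in the basal layer and feed the differentiating layers above them. HRas is a small GTPase that passes signals from growth factor receptors to the MAP kinases, and its oncogenic form drives squamous tumours in mouse skin. Tumour cells with high integrin alpha 6 and beta 1 are the fraction usually regarded as tumour-initiating in such grafts.

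The deposited counts summed to 27888423 in the HRas tumour library, 27663373 in the HRas TbrKO tumour library, 14216472 in Tbr HFSC and 24113054 in Tbr EpdSC. Levels are given in CPM, read counts scaled to library size by TMM over all 21 RNA libraries, the HRas tumour before the HRas TbrKO tumour and HFSC before EpdSC. Where pairs of values are joined by the word against, the tumour pair comes first. CPM are not divided by transcript length, so they are compared between libraries and not between genes. The genes behind the gates followed the sort labels: Cd34, a surface glycoprotein of bulge cells, stood at 1037 CPM in Tbr HFSC and 3.37 CPM in Tbr EpdSC, and Ly6a, which encodes Sca1, at 92.8 and 402 CPM. Itga6, the integrin of the gate that all 4 libraries share, was read at 1748 and 1676 CPM in the tumour libraries and 464 and 1826 CPM in the stem cell libraries. In sorted bulk samples, fewer cells of a type and less RNA per cell cannot be told apart.

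Of 14558 genes tested, 5409 (37.2%) differed between the arms at an adjusted p under 0.05, with 2709 higher in the tumour cells (18.6% of tested genes) and 2700 lower (18.5%). Both tumour libraries lay above both stem cell libraries in 5752 genes (39.5%) and below both in 5252 (36.1%), and the median log2 fold change over all genes was -0.01. These calls rested on having both tumour libraries. Without the HRas tumour library 285 genes were called, of which 199 were higher, and without the HRas TbrKO library 258 were called, of which 192 were higher. In those fits the spread comes from the stem cell arm alone, whose libraries are of different lineages. Of the 224 called genes among those listed or named below, 54 were called in both of these fits, and 149 were called in the same direction against each of 2 other sets of unwounded HFSC and EpdSC libraries of the series (set BK and set CL, 4 libraries each).

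The genes usually used to mark these tumour stem cells were Hmga2, Itgb1 and Cd34. Hmga2, an architectural chromatin protein of embryonic tissue, was read at 501 and 326 CPM in the tumour libraries and at 1.81 and 0 CPM in the stem cell libraries. It rose by 8.92 on the log2 scale (SE 1.59, adjusted p = 0.018), although its adjusted p was 0.0866 without the HRas tumour library and 0.0846 without the HRas TbrKO library. The TbrKO tumours, which carry no HRas in their labels, had 0.923 and 2.08 CPM, close to the stem cell values (log2 difference 8.14, SE 1.29, adjusted p = 0.0115). Itgb1, the beta 1 subunit shared by many matrix-binding integrins, was at 2194 and 1602 CPM in the tumour libraries and 393 and 656 CPM in the stem cell libraries. The lower tumour value was above the higher stem cell value, and the gene rose by 1.82 on the log2 scale (SE 0.40, adjusted p = 0.0269). With 1 tumour library left out its adjusted p was 0.166 or 0.129.

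Cd34 did not separate the arms but the stem cell lineages. Both tumour libraries, at 46.0 and 40.8 CPM, lay between the 2 stem cell libraries (log2 fold change -3.62, SE 2.15, adjusted p = 0.234). Without Tbr HFSC the log2 fold change of Cd34 was 3.66. Hras itself was at 253 and 276 CPM in the tumour libraries and 158 and 133 CPM in the stem cell libraries, a difference that passed the threshold (log2 fold change 0.82, SE 0.22, adjusted p = 0.0424) with the Tbr libraries as reference. The 8 unwounded stem cell libraries of the other sets reached from 184 to 386 CPM and so overlapped the tumour libraries, and against the BK libraries the log2 fold change was -0.036. Neither TGF-beta receptor gene passed. Tgfbr1 was at 85.4 and 64.0 CPM in the tumour libraries and 68.2 and 67.4 CPM in the stem cell libraries (adjusted p = 0.745). Tgfbr2 had 198 and 213 CPM against 58.6 and 139 CPM, with both tumour libraries above both stem cell libraries, but within the spread (adjusted p = 0.123). A deletion that removes part of a gene can leave reads in the rest of it, so these levels do not check a knockout label.

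**Figure D1:**
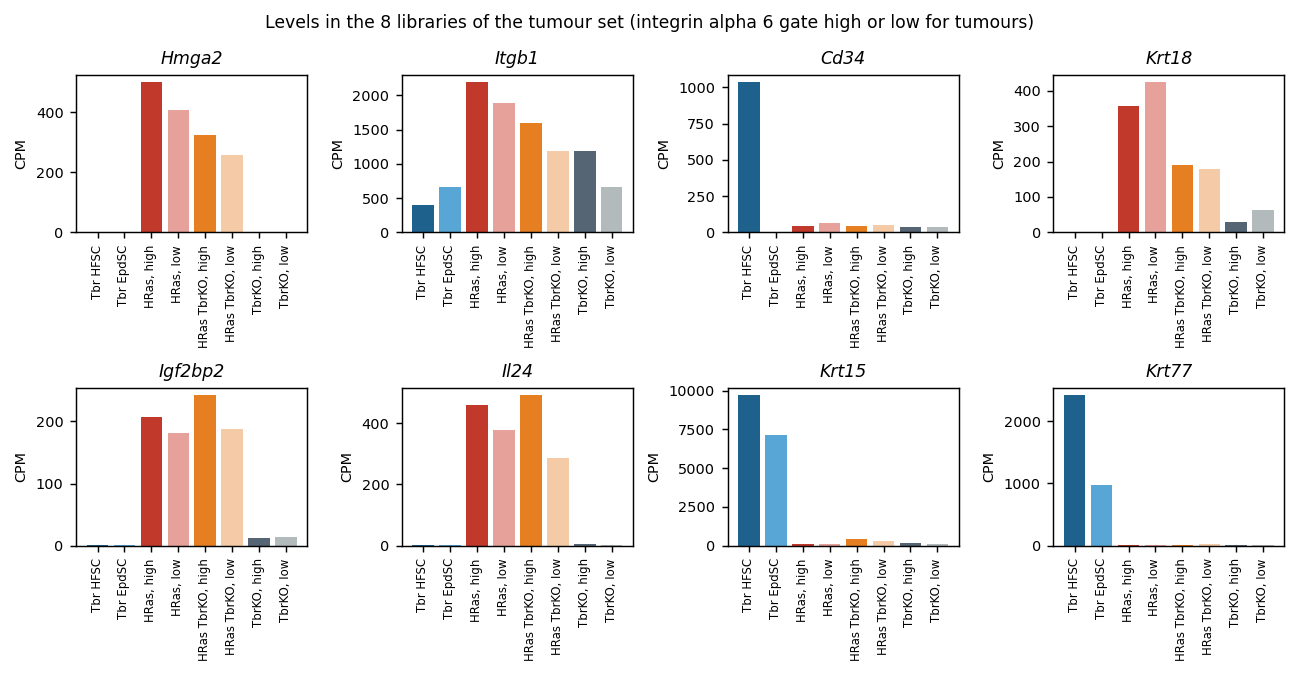
CPM (linear axis from 0) of 8 genes in the 8 libraries of the tumour set, 1 bar per library with no replicates. Hmga2 stands at 501 and 326 CPM in the integrin-high HRas-bearing tumours against 0.923 and 2.08 CPM in the TbrKO tumours, and Cd34 stands out in Tbr HFSC at 1037 CPM.

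Markers of other cell types were read before the results that could rest on them. Summed over 8 fibroblast markers, the tumour libraries had 3252 and 1496 CPM against 441 and 303 CPM in the stem cells, and the integrin-low gates of the same tumour genotypes 13780 and 11450 CPM. Of these, 6 rose and 0 fell, among them the collagen gene Col1a1 at 578 and 229 CPM in the tumour libraries and 4.67 and 1.04 CPM in the stem cell libraries, while Thy1 and Sparc did not pass. The 9 immune markers summed to 370 and 551 CPM against 140 and 43.0 CPM, and 1164 and 1924 CPM in the low gates. Here 5 rose, led by the macrophage lysozyme gene Lyz2 (112 and 156 CPM against 0.311 and 0.321 CPM). The Langerhans cell gene Cd207 fell (1.00 and 0.929 CPM against 17.8 and 4.02 CPM). Cd3e, of T cells, was at 0 and 0.107 CPM in the tumour libraries. All 6 endothelial markers rose, from a sum of 3.61 and 1.69 CPM in the stem cells to 200 and 126 CPM in the tumour cells. Pecam1, an adhesion molecule of blood vessels, was at 64.8 and 53.6 CPM in the tumour libraries and 0.748 and 1.12 CPM in the stem cell libraries, and Emcn, at 0 in both stem cell libraries, was at least 68.26-fold higher against a floor of 3 counts per library. Of 3 tested muscle and adipocyte markers 2 rose, with the sum at 129 and 494 CPM against 3.12 and 2.57 CPM, nearly all of it Fabp4. The 3 tested melanocyte markers did not pass. Of fibroblast, immune, endothelial, and muscle and adipocyte markers 75%, 55.6%, 100% and 66.7% rose, against 18.6% of all genes. The part of such cells in the results on matrix, vessel and cytokine genes was not tested.

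**Figure D2:**
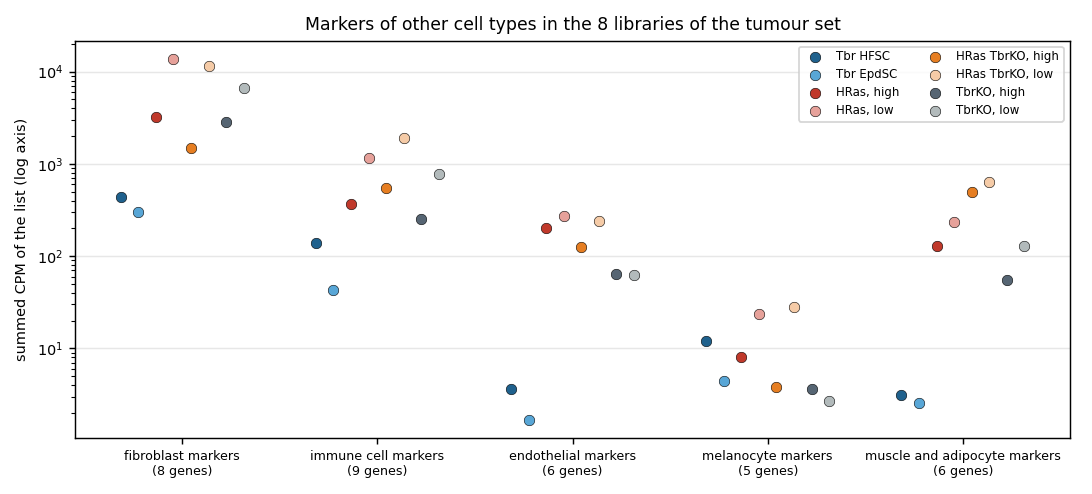
Summed CPM (log axis) of marker genes of 5 other cell types in each of the 8 libraries of the tumour set, 1 point per library. The fibroblast sum is 3252 and 1496 CPM in the integrin-high HRas-bearing libraries and 13780 and 11450 CPM in their integrin-low counterparts, against 441 and 303 CPM in the stem cells.

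The 15 higher genes furthest from both stem cell libraries included enzymes, secreted factors and 2 genes of embryonic tissue. Each rose, which their choice fixes. Each also lay above all 8 unwounded stem cell libraries of the other sets, which the choice of the widest gaps favours. No share over all called genes is given for this. Prkg2, the membrane-bound cGMP-dependent protein kinase, had 495 and 432 CPM in the tumour libraries and 0.249 and 0.281 CPM in the stem cell libraries. It rose by 10.70 on the log2 scale (SE 0.34, adjusted p = 0.0048), and the tumour libraries differed little from each other. Car2, a carbonic anhydrase that interconverts carbon dioxide and bicarbonate, was at 309 and 399 CPM in the tumour libraries and 0.623 and 0.281 CPM in the stem cell libraries (log2 fold change 9.63, SE 0.51, adjusted p = 0.0048). A pair of peptidylarginine deiminases, enzymes that convert arginine to citrulline in proteins such as keratins, were among them. Padi3 was at 304 and 258 CPM against 0.436 and 0 CPM. Padi4, at 191 and 164 CPM against 0.187 and 0.0402 CPM, was likewise near absence in the stem cells. They rose by 10.52 and 10.69 on the log2 scale, with SE 1.08 and 0.56. The cytokine gene Il24, of the interleukin 10 family, was at 459 and 492 CPM in the tumour libraries and 0.872 and 1.73 CPM in the stem cell libraries (log2 fold change 8.45, SE 0.46, adjusted p = 0.00499).

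Gsta4, a glutathione S-transferase that detoxifies products of lipid oxidation, had 1353 and 2828 CPM in the tumour libraries and 4.61 and 10.5 CPM in the stem cell libraries. The HRas TbrKO library was the higher of the tumour libraries, and both lay far above the stem cells (log2 fold change 8.07, SE 0.76, adjusted p = 0.0082). Igf2bp2, an RNA-binding protein of embryonic and tumour cells, was at 207 and 242 CPM in the tumour libraries and 0.249 and 1.25 CPM in the stem cell libraries (log2 fold change 8.10, SE 0.74, adjusted p = 0.00783). Krt18, a keratin of simple epithelia, was at 358 and 189 CPM in the tumour libraries and 1.06 and 0.482 CPM in the stem cell libraries (log2 fold change 8.48, SE 0.64, adjusted p = 0.00633). Upk3bl, an uroplakin-like gene, was at 173 and 253 CPM against 0.311 and 0.281 CPM. The serine protease gene Tmprss11e had 165 and 259 CPM against 0.436 and 0.161 CPM. The remaining 4 are also made by other cells of a tumour, as others of the 15 may be, and this was not tested. Spp1, which encodes the secreted phosphoprotein osteopontin, was at 205 and 187 CPM against 0.436 and 0.201 CPM. The platelet chemokine gene Ppbp had 142 and 269 CPM against 0.249 and 0.120 CPM, beside the higher immune and endothelial sums given above. Col3a1, a fibrillar collagen of fibroblasts, was at 834 and 342 CPM against 2.37 and 1.49 CPM, and 1855 CPM in the integrin-low TbrKO tumours. Fabp4, a fatty acid carrier of adipocytes and macrophages, was at 119 and 489 CPM against 0.187 and 0.120 CPM. The fibroblast sum, like Col3a1, was higher in the HRas than in the HRas TbrKO library (3252 against 1496 CPM).

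The 15 lower genes each fell, and they included the keratin gene Krt77, the cadherin gene Dsg1a and the cornified layer genes Flg2, Lce1m and Scel. Krt77, a keratin of suprabasal cells, was at 5.19 and 1.82 CPM in the tumour libraries and 2415 and 978 CPM in the stem cell libraries. Both tumour libraries lay below both stem cell libraries by a wide margin (log2 fold change -8.95, SE 0.94, adjusted p = 0.00896), and without the HRas TbrKO library the adjusted p was 0.0539. Ackr4, a scavenging receptor for chemokines, was at 0.770 and 0.715 CPM in the tumour libraries and 324 and 255 CPM in the stem cell libraries. Serpinb7, a protease inhibitor of keratinocytes, was at 0.803 and 0.179 CPM against 237 and 336 CPM. They fell by 8.63 and 9.20 on the log2 scale. Skint5 and Skint10 belong to a family of skin and thymus genes related to butyrophilins that guides epidermal gamma delta T cells. Skint5 was at 0.301 and 0.322 CPM against 146 and 149.9 CPM, nearly equal within each arm (log2 fold change -8.90, SE 0.28, adjusted p = 0.0048). Skint10 was at 1.04 and 0.500 CPM against 250.2 and 82.2 CPM (log2 fold change -7.78, SE 0.83, adjusted p = 0.009). Skint10 was not called with 1 tumour library left out, at an adjusted p of 0.0507 or 0.0585.

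Dsg1a, a desmosomal cadherin of the upper epidermis, was at 20.2 and 13.1 CPM in the tumour libraries and 862 and 1309 CPM in the stem cell libraries. Flg2, a filaggrin relative of the cornified layer, was at 1.37 and 0.465 CPM against 379 and 126 CPM. Lce1m, a late envelope protein, was at 0.301 and 0.250 CPM against 325 and 69.0 CPM, and both were highest in Tbr HFSC. Neither Flg2 nor Lce1m was called against both other stem cell sets. Lce1m was not called without the HRas tumour library (adjusted p = 0.0636) or without the HRas TbrKO library (0.0687), and Flg2 not without the latter (0.0565). Scel, a precursor of the cornified envelope, was at 18.2 and 14.3 CPM against 688 and 676 CPM (log2 fold change -5.43, SE 0.29, adjusted p = 0.00499). The cytolinker gene Eppk1 was at 4.45 and 2.90 CPM against 197 and 319.5 CPM (log2 fold change -6.17, SE 0.43, adjusted p = 0.00607). Zbtb16, the transcription factor PLZF, was at 1.57 and 0.572 CPM against 154 and 152 CPM (log2 fold change -7.18, SE 0.58, adjusted p = 0.00683). Bbox1, an enzyme of carnitine synthesis, was at 1.87 and 1.07 CPM against 121 and 206 CPM, but at 166 and 114 CPM in the TbrKO tumours. Dapl1, Sult5a1 and Wdr65 completed the set, with log2 fold changes of -7.30, -8.10 and -8.44. Members of close families such as Skint, Lce1 and Dsg1 are uncertain, since nothing in the sources used here says how reads shared between copies were counted.

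**Figure D3:**
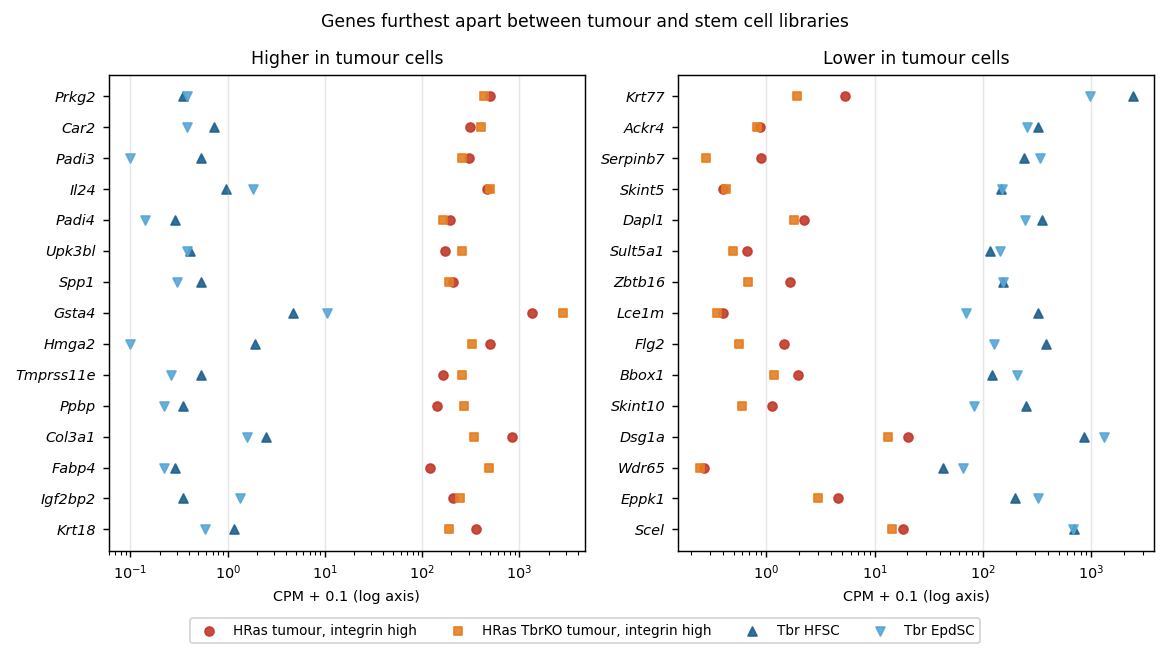
CPM plus 0.1 (log axis) of the 15 higher and 15 lower genes furthest apart between the arms, 1 point per library. In every row both tumour points lie on one side of both stem cell points, which the choice of these genes fixes.

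Open chromatin had been mapped by ATAC-seq in 1 pooled sample each of tumour stem cells, HFSC and EpdSC, so that promoters of the same genes could be looked up. ATAC-seq marks DNA that a transposase can reach, and the height of a peak is the authors' fold enrichment over the local background. The tumour sample came from grafts sorted for high integrin alpha 6 and beta 1 and for GFP, and all 3 samples from mice of mixed CD1 and B6 background, which differs from the RNA libraries. The labels give postnatal day 50 for the HFSC and EpdSC samples and no age for the tumour sample, against day 60 for the RNA libraries. The lists held 54201, 55435 and 25742 peaks, and the shallower EpdSC sample had the fewest. Of the 15 higher genes 9 had a start site in the table, and 7 of those had a tumour peak within 1 kb of it, 5 of them in the tumour list alone: Padi3 (fold enrichment 5.45), Padi4 (3.53), Upk3bl (6.06), Spp1 (5.1) and Ppbp (3.48). The Hmga2 start site had a peak of 5.86 in tumour cells and 4.28 in HFSC, and none in EpdSC. The share of all tested genes with a peak in the tumour list alone is not given, since too few of them had a start site in the table, so this count is a description. Of the 15 lower genes 12 had a start site, of which 6 had no peak in any list, 2 a peak in stem cells alone and 1 in tumour cells alone. Skint5 and Skint10 had a peak in EpdSC alone, at 7.97 and 8.31. The Dapl1 promoter was open in all 3 lists, at 5.33 in tumour cells against 12.16 in HFSC and 6.96 in EpdSC. Other lower genes had a tumour peak as well. Serpinb7 had one of 6.26 in tumour cells alone, Scel was at 10.01 in tumour cells against 9.65 in HFSC and 8.22 in EpdSC, and Wdr65 at 5.57 in tumour cells and 8.37 in HFSC, with none in EpdSC. Itgb1 was open in all 3 lists, at 10.96, 10.59 and 8.24 in tumour cells, HFSC and EpdSC.

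The 250 bases before the start site are shown for 6 of these genes, to set a promoter shared with HFSC (Hmga2) and 4 of the 6 listed in tumour cells alone (Padi3, Padi4, Ppbp, Serpinb7) beside one listed in EpdSC alone (Skint5). Sequences are from RefSeq on build GRCm38.p6, written 5′ to 3′ on the gene's strand. Capitals mark TGANTCA, the core of AP-1 motifs, which reads the same on both strands and occurs in 6.75% of 32851 promoter windows of this length.
Hmga2, chr10:120476470-120476719, minus strand: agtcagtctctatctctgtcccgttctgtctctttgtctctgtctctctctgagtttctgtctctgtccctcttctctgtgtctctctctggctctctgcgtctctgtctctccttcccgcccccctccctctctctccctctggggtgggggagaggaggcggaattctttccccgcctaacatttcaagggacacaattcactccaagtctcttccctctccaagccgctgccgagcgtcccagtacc
Padi3, chr4:140810649-140810898, minus strand: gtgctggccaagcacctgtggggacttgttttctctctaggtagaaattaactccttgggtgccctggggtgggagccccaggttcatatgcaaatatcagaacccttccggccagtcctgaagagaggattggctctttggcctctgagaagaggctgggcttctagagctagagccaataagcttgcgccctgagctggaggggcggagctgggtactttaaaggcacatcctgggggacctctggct
Padi4, chr4:140774204-140774453, minus strand: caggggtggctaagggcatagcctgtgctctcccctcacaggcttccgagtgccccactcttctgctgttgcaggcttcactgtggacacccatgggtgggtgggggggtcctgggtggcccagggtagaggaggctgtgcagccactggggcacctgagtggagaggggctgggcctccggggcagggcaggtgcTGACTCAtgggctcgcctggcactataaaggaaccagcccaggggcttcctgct
Ppbp, chr5:90768268-90768517, plus strand: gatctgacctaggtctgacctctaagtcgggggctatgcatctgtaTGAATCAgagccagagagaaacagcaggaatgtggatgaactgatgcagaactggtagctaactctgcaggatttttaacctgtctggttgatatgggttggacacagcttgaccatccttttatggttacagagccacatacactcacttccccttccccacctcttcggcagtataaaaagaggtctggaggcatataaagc
Serpinb7, chr1:107422439-107422688, plus strand: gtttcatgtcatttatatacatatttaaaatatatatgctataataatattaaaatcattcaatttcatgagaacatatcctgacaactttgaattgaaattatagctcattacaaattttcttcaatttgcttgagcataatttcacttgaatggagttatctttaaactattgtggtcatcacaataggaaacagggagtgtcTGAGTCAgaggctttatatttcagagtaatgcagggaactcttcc
Skint5, chr4:113999504-113999753, minus strand: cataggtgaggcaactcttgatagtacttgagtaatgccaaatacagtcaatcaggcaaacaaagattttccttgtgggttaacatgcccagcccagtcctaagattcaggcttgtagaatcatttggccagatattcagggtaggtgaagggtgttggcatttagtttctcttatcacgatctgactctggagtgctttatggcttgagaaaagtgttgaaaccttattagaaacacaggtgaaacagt
The motif starts 54 bases before the start site in Padi4, 204 in Ppbp and 45 in Serpinb7. It is not in the windows of Hmga2, Padi3 and Skint5, nor in those of Upk3bl and Spp1, the other 2 listed in tumour cells alone. Flg2, with no peak, and Scel, with a peak in all 3 lists, hold it too, so that it occurs in 3 of the 6 windows listed in tumour cells alone and in 2 of the other 15. A match describes these letters and does not show that a factor binds.

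Genes of stem cell identity fell more often than they rose, and the median of the HFSC genes rested on Tbr HFSC. Of 20 HFSC identity genes 8 fell (40%) and 1 rose (5%), with a median log2 fold change of -3.64 against -0.01 over all genes. Of 15 EpdSC identity genes 4 fell (26.7%) and 0 rose (median -1.60). Over all genes 18.5% fell and 18.6% rose. Without Tbr HFSC, 9 HFSC identity genes were called lower and 6 higher, with a median of -0.63. Krt15, a keratin of bulge cells, was at 123 and 402 CPM in the tumour libraries and 9694 and 7159 CPM in the stem cell libraries and fell by 5.04 on the log2 scale (SE 0.79, adjusted p = 0.0147). Krt24, a further bulge keratin, was at 0 in both tumour libraries and at 519 and 25.1 CPM in the stem cells. Against a floor of 3 counts per library it was at least 2619-fold below the stem cell mean, which is mostly Tbr HFSC. Lhx2, a transcription factor that keeps bulge cells at rest, was at 0.435 and 0.214 CPM in the tumour libraries and 278 and 2.77 CPM in the stem cell libraries (log2 fold change -8.77, SE 2.46, adjusted p = 0.0472), low in every library but Tbr HFSC. Nfib, a regulator of stem cells in the bulge, was at 61.7 and 35.5 CPM against 1175 and 423 CPM. Nfatc1, which restrains bulge cell division, was at 6.56 and 6.18 CPM against 127 and 50.9 CPM. Both fell, by 4.08 and 3.84 on the log2 scale. Tnc, the matrix protein tenascin C, was the member that rose, from 45.4 and 21.6 to 502 and 321 CPM. Lgr5, at 1.07 and 0.500 CPM against 255 and 1.33 CPM, did not pass (adjusted p = 0.0726), with Tbr EpdSC almost as low as the tumour cells. Sox9, a regulator of HFSC fate, at 88.1 and 54.2 CPM against 236 and 34.5 CPM, lay between the stem cell libraries.

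Among EpdSC identity genes, the transcription factor gene Gata3 was at 10.5 and 16.4 CPM in the tumour libraries and 154 and 250.1 CPM in the stem cell libraries (log2 fold change -3.94, SE 0.40, adjusted p = 0.00861). Klf4, of epidermal barrier formation, was at 218 and 242 CPM against 1057 and 1010 CPM (log2 fold change -2.20, SE 0.26, adjusted p = 0.00974). Tfap2b (4.48 and 0.608 CPM against 354 and 112 CPM) and Hes1 were the other 2 that fell. Klf4 and Tfap2b were higher in Tbr HFSC than in Tbr EpdSC, and Gata3 and Hes1 were lower there, so the falls do not follow the EpdSC lineage alone. Klf5, a factor of EpdSC, was at 64.2 and 69.3 CPM against 38.9 and 110.5 CPM and did not pass (adjusted p = 0.781). None of the 9 HFSC and 4 EpdSC identity calls was made in both fits with a tumour library left out, and 7 and 2 of them were made against both other stem cell sets.

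Lineage genes were also taken from the BK libraries, in which 1019 tested genes had been called higher in HFSC and 937 higher in EpdSC. In the Tbr libraries 99.3% and 98.7% of them had the same order between the lineages. Of the HFSC genes 17.5% fell, near the 18.5% over all genes, and 6.67% rose, against 18.6% over all genes, and 71.2% were below Tbr HFSC in both tumour libraries. Their median was 13.9 CPM in Tbr HFSC and 2.29 CPM in Tbr EpdSC, with 5.12 and 4.00 CPM in the tumour cells. Of the EpdSC genes 21.6% fell and 11% rose, against the same shares. Their median was 38.0 CPM in Tbr EpdSC, 13.2 CPM in Tbr HFSC and 23.7 and 23.0 CPM in the tumour cells. For both BK sets the tumour medians lay between those of the 2 stem cell libraries. The genes were chosen for a difference between HFSC and EpdSC. That choice favours tumour levels between the lineages and below the own lineage, so these places are a description. The genes chosen in the CL libraries gave another picture. Of the HFSC genes from CL, 14% fell and 16.9% rose, and their tumour medians, at 9.17 and 7.61 CPM, again lay between Tbr HFSC (16.5 CPM) and Tbr EpdSC (3.01 CPM). Of the EpdSC genes from CL, 32.8% fell and 11.6% rose, and their tumour medians, at 23.5 and 24.8 CPM, lay below both Tbr EpdSC (57.2 CPM) and Tbr HFSC (27.3 CPM).

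**Figure D4:**
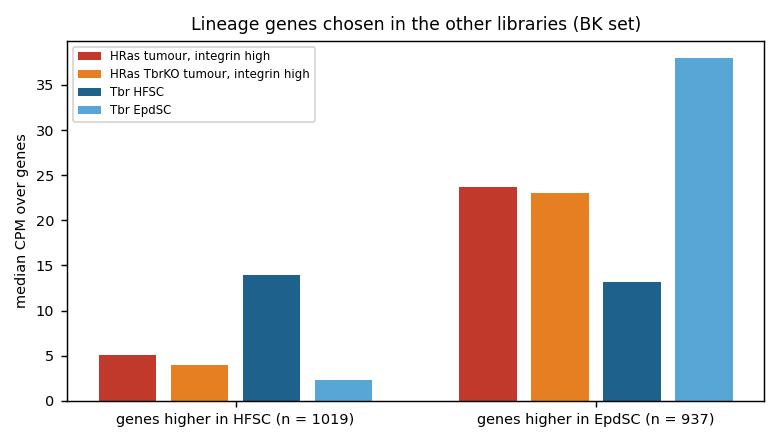
Median CPM (linear axis from 0) of genes that the BK libraries put higher in HFSC (1019 genes) or in EpdSC (937 genes), in the 4 libraries compared, with no error bars since each bar is 1 library. The tumour libraries stand at 5.12 and 4.00 CPM for HFSC genes and at 23.7 and 23.0 CPM for EpdSC genes. Both lie between the stem cell libraries, a place favoured by choosing genes that differ between the lineages.

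Of 15 tumour stem cell genes taken from general knowledge of such tumours, 12 rose (80%) and 1 fell (6.67%), with a median log2 fold change of 3.71. Over all genes 18.6% rose and 18.5% fell. Sox2, a pluripotency factor expressed in squamous tumours, was at 36.6 and 33.2 CPM in the tumour libraries and 0 and 0.120 CPM in the stem cell libraries (log2 fold change 8.81, SE 0.75, adjusted p = 0.00689). Pitx1, a homeobox factor, was at 82.8 and 96.5 CPM in the tumour libraries and 0.311 and 0.161 CPM in the stem cell libraries (log2 fold change 8.57, SE 0.42, adjusted p = 0.0048). The hyaluronan receptor gene Cd44 was at 1695 and 1774 CPM against 368 and 782 CPM (log2 fold change 1.56, SE 0.45, adjusted p = 0.0492). Pdpn, the mucin podoplanin, was at 94.4 and 89.3 CPM against 1.81 and 6.79 CPM (log2 fold change 4.37, SE 0.68, adjusted p = 0.0144). Trp63, which encodes p63, the basal keratinocyte factor, fell by 2.07 on the log2 scale (SE 0.30, adjusted p = 0.0132), from 1168 and 1601 CPM to 343 and 330.3 CPM. Vegfa, at 164 and 194 CPM against 29.3 and 82.6 CPM, and Itga6 did not pass. Twist1 was among the 12 that rose but was low in all 4 libraries, at 2.98 and 1.61 CPM against 0.125 and 0.201 CPM. It was not called against both other stem cell sets, and had a promoter peak of 5.52 in tumour cells alone. Of the 13 calls, 3 were also made in both fits with a tumour library left out, and 10 against both other stem cell sets.

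Keratins of simple and of wounded epithelium were high in tumour cells, and the keratin pair of the basal layer did not pass. Krt5, of basal keratinocytes, was at 14220 and 15010 CPM against 12600 and 19750 CPM (adjusted p = 0.821). Its partner Krt14 was at 13790 and 19580 CPM against 5017 and 13270 CPM (adjusted p = 0.376), and for both the arms overlapped or nearly met. Of 5 simple epithelial keratins 4 rose (80%, against 18.6% of all genes) and 0 fell. Krt8, the partner of Krt18, was at 223 and 80.3 CPM in the tumour libraries and 2.12 and 0.0803 CPM in the stem cell libraries. Krt19 was at 329.9 and 598 CPM against 3.18 and 1.45 CPM. Krt20, a keratin of gut epithelium, was at 104 and 77.0 CPM against 0.311 and 0.0402 CPM. These 3 rose by 7.17, 7.63 and 9.12 on the log2 scale, while Krt7 did not pass (adjusted p = 0.129). Of 15 wound keratins and alarm proteins 11 rose (73.3%) and 0 fell (median 3.56). Krt6a was at 5751 and 8389 CPM in the tumour libraries and 358 and 90.6 CPM in the stem cell libraries (log2 fold change 4.94, SE 0.87, adjusted p = 0.0175). Krt6b was at 639 and 1817 CPM against 18.3 and 16.6 CPM. Krt16, the partner of both, was at 1374 and 2724 CPM against 139 and 358 CPM (log2 fold change 3.01, SE 0.64, adjusted p = 0.0253). Krt6a and Krt6b are near-identical copies whose reads may be split. S100a8, a subunit of calprotectin, was at 63.5 and 223 CPM against 9.28 and 7.67 CPM. The other subunit, S100a9, was at 142 and 559.7 CPM against 13.5 and 6.03 CPM, and both were highest in the HRas TbrKO library. They are also made by neutrophils, and the immune sum was likewise higher in that library, at 551 against 370 CPM. S100a8 had a promoter peak of 6.26 in the tumour list alone, and S100a9 had none in any list. The part of immune cells in these levels was not tested. Krt17 did not pass (2458 and 2510 CPM against 1283 and 414 CPM, adjusted p = 0.11). With the BK libraries as reference 7 of this list rose, and with CL 14.

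Of 14 tested genes of epidermal differentiation 7 fell (50%) and 1 rose (7.14%), against 18.5% and 18.6% over all genes (median -2.98). Krt10, a keratin of the spinous layer, was at 239 and 126 CPM against 10500 and 4475 CPM (log2 fold change -5.40, SE 0.74, adjusted p = 0.0119). Its partner Krt1 was at 234 and 87.9 CPM against 2272 and 1816 CPM. Lor, which encodes loricrin, was at 6.39 and 3.32 CPM in the tumour libraries and 650.1 and 136 CPM in the stem cell libraries (log2 fold change -6.38, SE 0.99, adjusted p = 0.0145). The desmosomal cadherin gene Dsc1 was at 13.7 and 5.22 CPM against 304 and 109 CPM. The gene that rose was Tgm1, the transglutaminase that cross-links the envelope, at 107 and 207 CPM against 35.6 and 12.7 CPM (log2 fold change 2.66, SE 0.63, adjusted p = 0.0315). Ivl, the early envelope protein involucrin, did not pass (99.8 and 189 CPM against 91.4 and 29.9 CPM). Tbr HFSC had the highest level of Krt10, Lor, Krtdap and Sbsn, a library sorted for bulge cells. With the BK libraries as reference 4 of the list fell and 2 rose.

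**Figure D5:**
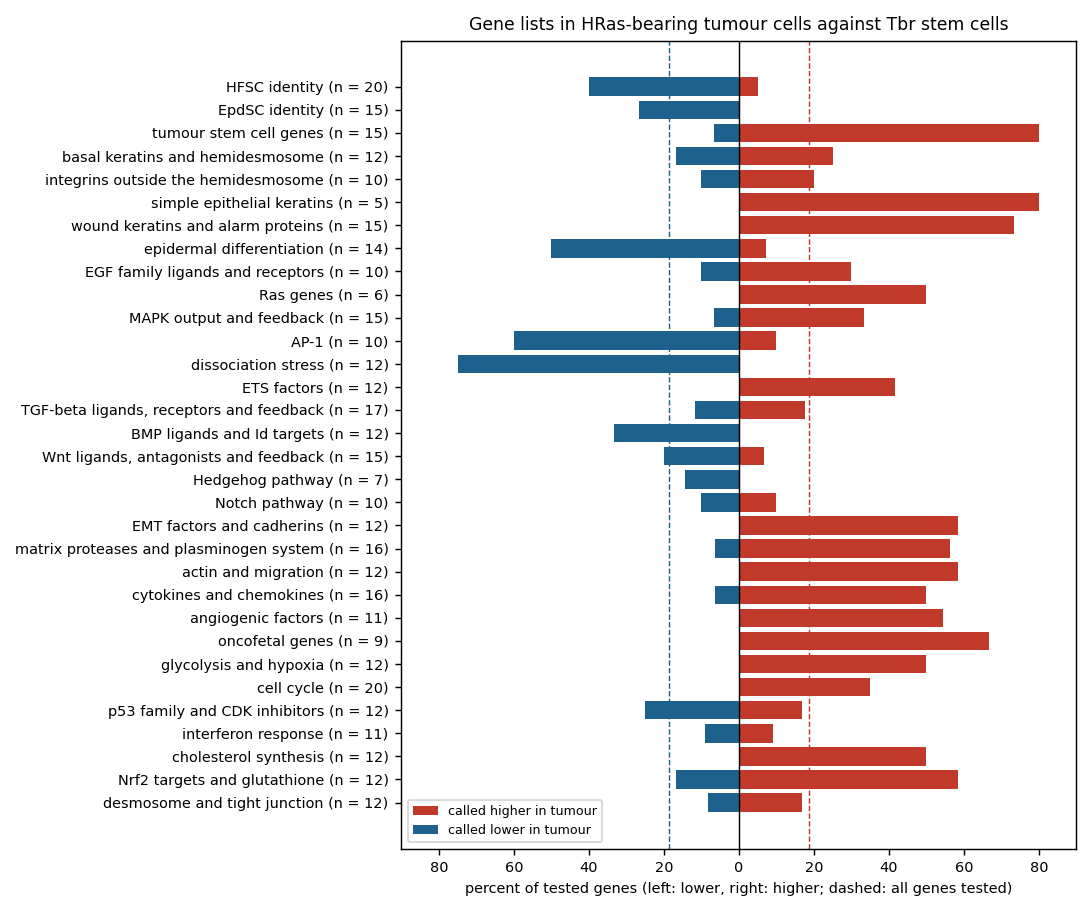
Percent of the tested genes called higher (right) or lower (left) in the tumour cells against the Tbr stem cells, for the pathway lists (markers of other cell types are not drawn), with dashed lines at the shares over all genes, 18.6% and 18.5%. Of the lists drawn, simple epithelial keratins and tumour stem cell genes (80% each) and wound keratins (73.3%) reach furthest to the right, and dissociation stress and AP-1 genes furthest to the left.

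Genes of matrix contact were called at shares near those over all genes, while genes of actin and migration rose at 58.3% against 18.6%. Lama3, a laminin chain of the epidermal basement membrane, was at 1980 and 1305 CPM in the tumour libraries and 369 and 638 CPM in the stem cell libraries (log2 fold change 1.67, SE 0.42, adjusted p = 0.0366). Dst, which encodes the hemidesmosomal plakin BP230, fell by 2.49 on the log2 scale (SE 0.34, adjusted p = 0.0116), from 2845 and 3047 to 596 and 477 CPM. With Krt15 it was one of 2 of 12 basal and hemidesmosome genes that fell (16.7%), against 3 that rose (25%). Of 10 integrins outside the hemidesmosome 1 fell and 2 rose, Itgb1 and the fibronectin receptor subunit Itga5 (77.2 and 36.1 CPM against 12.0 and 9.28 CPM). Itgb6 fell (20.6 and 17.2 CPM against 73.6 and 33.7 CPM), although its log2 fold change was 0.11 against the CL libraries. Itga3, of the laminin receptor, was at 1235 and 1031 CPM against 127 and 401 CPM and missed the threshold (adjusted p = 0.0503). Of 12 actin and migration genes 7 rose and 0 fell. Fscn1, the actin-bundling protein fascin, was at 459 and 359 CPM in the tumour libraries and 8.35 and 8.84 CPM in the stem cell libraries (log2 fold change 5.54, SE 0.28, adjusted p = 0.0048). Lasp1, an actin-binding adaptor, was at 358 and 291 CPM against 26.0 and 44.5 CPM (log2 fold change 3.17, SE 0.35, adjusted p = 0.00915). The tropomyosin genes Tpm1, Tpm2 and Tpm4 rose by 2.17, 2.20 and 1.36 on the log2 scale.

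Of 12 genes of epithelial to mesenchymal transition (EMT) 7 rose (58.3%, against 18.6% of all genes) and 0 fell. Cdh1, the epithelial E-cadherin, was at 485 and 602 CPM against 574 and 895 CPM and did not pass (adjusted p = 0.305). Twist2 was at 20.6 and 13.5 CPM in the tumour libraries and 0.0623 and 0 CPM in the stem cell libraries (log2 fold change 9.11, SE 0.96, adjusted p = 0.00897). Zeb2, a repressor of epithelial genes, was at 12.5 and 12.2 CPM against 0.623 and 0.241 CPM. Vim, the intermediate filament vimentin, was at 311 and 232 CPM against 40.4 and 9.04 CPM (log2 fold change 3.42, SE 0.77, adjusted p = 0.0287). Fn1, fibronectin, was at 145 and 100.2 CPM against 4.86 and 14.5 CPM. Snai1 and Snai2 did not pass. Cdh2, at 0 in both stem cell libraries, was at least 18.14-fold higher. Vim and Fn1 are also made by fibroblasts, whose marker sum was higher in the tumour libraries as given above. None of the 7 calls was made in both fits with a tumour library left out.

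Of 16 genes of matrix proteases and the plasminogen system 9 rose (56.2%) and 1 fell (6.25%), with a median of 3.30. Over all genes 18.6% rose and 18.5% fell. The count depended on the reference: against the BK libraries 3 rose and 0 fell, against CL 11 rose and 0 fell, and 3 of the 10 calls were made against both. Plau, the urokinase protease, was at 601 and 308 CPM in the tumour libraries and 24.5 and 54.3 CPM in the stem cell libraries (log2 fold change 3.495, SE 0.57, adjusted p = 0.0154). Its receptor Plaur was at 119 and 102 CPM in the tumour libraries and 1.18 and 2.93 CPM in the stem cell libraries (log2 fold change 5.69, SE 0.52, adjusted p = 0.00783). The collagenase gene Mmp13 was at 139 and 123 CPM against 0.561 and 2.53 CPM (log2 fold change 6.32, SE 0.74, adjusted p = 0.00974). The gelatinase gene Mmp9 was at 63.7 and 25.9 CPM against 1.87 and 0.643 CPM, highest in the HRas library. Timp1, a metalloprotease inhibitor, was at 127 and 40.5 CPM against 0.81 and 0.281 CPM. The member that fell was Serpinb2, the plasminogen activator inhibitor of keratinocytes, at 492 and 483 CPM against 1031 and 3531 CPM (adjusted p = 0.0495). Mmp1a and Mmp1b, near copies of each other, also rose.

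Of 10 EGF family genes 3 ligands rose (30%) and 1 receptor fell (10%), against 18.6% and 18.5% over all genes. Areg, the ligand amphiregulin, was at 282 and 306 CPM in the tumour libraries and 40.1 and 23.9 CPM in the stem cell libraries and rose by 3.16 on the log2 scale (SE 0.34, adjusted p = 0.009). Tgfa was at 259 and 220.3 CPM in the tumour libraries and 22.6 and 37.0 CPM in the stem cell libraries (log2 fold change 2.97, SE 0.32, adjusted p = 0.009). Nrg1, neuregulin, was at 149 and 114 CPM in the tumour libraries and 1.93 and 5.18 CPM in the stem cell libraries (log2 fold change 5.16, SE 0.56, adjusted p = 0.009). Egfr, the receptor, fell by 1.46 on the log2 scale (SE 0.22, adjusted p = 0.014), at 80.8 and 76.9 CPM against 234 and 190.1 CPM. Erbb2, Erbb3, Hbegf, Ereg, Btc and Epgn did not pass. Of 6 Ras genes 3 rose (50%), Hras among them. The R-Ras relative Rras2 rose as well, at 162 and 189 CPM against 33.6 and 49.7 CPM (log2 fold change 2.04, SE 0.28, adjusted p = 0.0118). Nras was at 218 and 193 CPM against 137 and 181 CPM and did not pass (adjusted p = 0.309).

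Of 15 genes of MAP kinase output and feedback 5 rose (33.3%) and 1 fell (6.67%), against 18.6% and 18.5% over all genes. Phlda1, induced by growth factors, was at 465 and 446 CPM in the tumour libraries and 59.4 and 54.8 CPM in the stem cell libraries (log2 fold change 2.96, SE 0.23, adjusted p = 0.00649). The phosphatase gene Dusp4 was at 13.8 and 19.2 CPM against 1.495 and 0.844 CPM. Dusp5, a phosphatase of ERK, was at 53.2 and 47.9 CPM against 7.29 and 15.6 CPM. Dusp6, the ERK phosphatase, was at 382 and 269 CPM against 217 and 167 CPM and did not pass (adjusted p = 0.11). Spry1, a feedback inhibitor of receptor signalling, fell by 2.83 on the log2 scale (SE 0.27, adjusted p = 0.0082), at 10.5 and 7.72 CPM against 64.2 and 62.6 CPM. Of 12 ETS factors 5 rose (41.7%) and 0 fell. Elk3 was at 169 and 130.4 CPM in the tumour libraries and 5.86 and 6.23 CPM in the stem cell libraries (log2 fold change 4.60, SE 0.26, adjusted p = 0.00499). The epithelial factor gene Elf3 was at 76.8 and 155 CPM against 4.80 and 8.52 CPM. Etv4, a target of MAP kinase signalling, was at 69.8 and 68.0 CPM against 19.6 and 10.8 CPM. Etv5 and Ets2 did not pass.

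AP-1 genes were lower in the tumour cells, with 6 of 10 falling (60%, against 18.5% of all genes). The 1 that rose, Batf, did so from 0 (at least 5.17-fold), and the median over the list was -1.26. Fosb was at 191 and 135 CPM in the tumour libraries and 2664 and 3983 CPM in the stem cell libraries (log2 fold change -4.38, SE 0.44, adjusted p = 0.00861). Fos was at 1055 and 884 CPM against 5646 and 6290 CPM. Its partner Jun was at 609 and 613 CPM against 1618 and 1846 CPM, and for all 3 both tumour libraries lay below both stem cell libraries. They are immediate early genes, which tissue dissociation also induces. They moved with a list of such stress genes, of which 9 of 12 fell (75%) and 0 rose (median -2.40). Egr1 was at 277 and 259.7 CPM in the tumour libraries and 3090 and 2706 CPM in the stem cell libraries (log2 fold change -3.47, SE 0.33, adjusted p = 0.00834). Nr4a1, an orphan nuclear receptor, was at 113 and 73.2 CPM against 837 and 1717 CPM. Dusp1, a phosphatase of stress kinases, was at 406 and 464 CPM against 1700 and 2689 CPM. Summed over the 12 stress genes, the tumour libraries had 2620 and 2774 CPM, the Tbr stem cells 11150 and 13070 CPM, and the 8 other stem cell libraries from 2088 to 22600 CPM. Against the BK libraries 3 stress genes rose and 0 fell, and 1 AP-1 gene rose and 1 fell. Against CL, 2 stress genes rose and 9 fell, and 1 AP-1 gene rose and 7 fell. The medians stayed below 0 against each reference, at -1.80 for the stress genes and -1.39 for AP-1 against BK and at -3.01 and -2.59 against CL. Of the lower calls, however, only that of the AP-1 gene Jund was made against BK. The part of dissociation in these values was not tested.

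In the TGF-beta pathway 3 of 17 genes rose and 2 fell, shares close to those over all genes. Of the ligands, Tgfb1 was at 99.9 and 96.5 CPM in the tumour libraries and 11.7 and 19.3 CPM in the stem cell libraries (log2 fold change 2.63, SE 0.32, adjusted p = 0.00986). Tgfb3 was at 77.5 and 46.5 CPM against 15.6 and 5.50 CPM, and both rose. The co-receptor gene Tgfbr3 fell by 3.01 on the log2 scale (SE 0.60, adjusted p = 0.0222), at 9.84 and 8.54 CPM against 35.0 and 109.7 CPM. Smad3, a signal transducer, rose, at 65.4 and 59.9 CPM against 22.3 and 34.6 CPM, while Smad2 and Smad4 did not pass. The induced gene Tgfbi fell, at 618.4 and 635 CPM against 1189 and 1467 CPM. Of 12 genes of the BMP pathway, which restrains stem cell division in the bulge, 4 fell (33.3%, against 18.5% of all genes) and 0 rose. The ligand Bmp4 was at 0.87 and 0.500 CPM in the tumour libraries and 9.53 and 48.6 CPM in the stem cell libraries (log2 fold change -5.42, SE 0.98, adjusted p = 0.0185). The receptor gene Bmpr1a was at 121 and 108 CPM against 219.7 and 234 CPM. The second receptor gene, Bmpr2, had 117 and 89.4 CPM against 217 and 348 CPM. Id3, a target of the pathway, was at 41.6 and 59.9 CPM against 255 and 132 CPM, with Tbr HFSC the highest library. Of the 5 TGF-beta calls 1, that of Tgfbi, was made against both other stem cell sets. None of the BMP calls was made against both.

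Of 15 tested Wnt genes 3 fell (20%) and 1 rose (6.67%), against 18.5% and 18.6% over all genes. Axin2, a feedback target of canonical Wnt signalling, was at 3.85 and 4.00 CPM in the tumour libraries and 34.5 and 82.5 CPM in the stem cell libraries (log2 fold change -3.93, SE 0.51, adjusted p = 0.011). The ligand Wnt3 was at 2.27 and 2.14 CPM against 31.4 and 124 CPM. The antagonist Sfrp1 was at 17.8 and 16.9 CPM against 637 and 74.6 CPM, highest in Tbr HFSC. Wnt7a, a ligand of epithelia, was the gene that rose, at 31.5 and 26.1 CPM in the tumour libraries and 0.187 and 1.57 CPM in the stem cell libraries (log2 fold change 4.94, SE 0.92, adjusted p = 0.0197). Of 7 tested Hedgehog genes Gli3 fell (14.3% of the list), at 17.1 and 13.9 CPM against 35.5 and 26.9 CPM, and 0 rose. Of 10 Notch genes, Notch3 rose and the target Hes1 fell (10% each way, under the shares over all genes). Notch3 was at 51.5 and 54.9 CPM against 24.9 and 31.5 CPM. Hes1 was at 106 and 147 CPM against 257 and 562 CPM, and each changed sign against 1 of the other stem cell sets (CL for Notch3, BK for Hes1).

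Of 16 cytokines and chemokines 8 rose and 1 fell, and 6 of these 9 were called in both fits with a tumour library left out. The shares that rose and fell were 50% and 6.25%, against 18.6% and 18.5% over all genes. Il1a, an alarm cytokine of keratinocytes, was at 94.4 and 94.3 CPM against 3.74 and 6.31 CPM (log2 fold change 4.19, SE 0.34, adjusted p = 0.00687). Il1b, its secreted relative, was at 138 and 271 CPM against 2.87 and 1.37 CPM. Cxcl1, which attracts neutrophils, was at 469.6 and 370.4 CPM in the tumour libraries and 17.5 and 22.2 CPM in the stem cell libraries (log2 fold change 4.37, SE 0.29, adjusted p = 0.00553). Its relative Cxcl2 was at 143 and 246 CPM against 3.05 and 1.12 CPM, and Cxcl5 rose likewise (adjusted p = 0.00908). Csf2, the growth factor GM-CSF, was at 37.1 and 27.4 CPM in the tumour libraries and 0.125 and 0.201 CPM in the stem cell libraries (log2 fold change 7.51, SE 0.47, adjusted p = 0.00507), and stood at 0.849 and 2.08 CPM in the TbrKO tumours. Cxcl14, a chemokine of resting epidermis, fell by 4.90 on the log2 scale (SE 0.88, adjusted p = 0.0184), from 1686 and 413 to 48.5 and 23.8 CPM. Il33, Il18 and Tslp did not pass. Il1b and Cxcl2 are also made by myeloid cells, whose markers rose as given above.

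Among 11 tested angiogenic factors and receptors 6 rose (54.5%, against 18.6% of all genes) and 0 fell. Nrp1, a coreceptor for VEGF and semaphorins, was at 68.3 and 51.5 CPM against 1.75 and 0.442 CPM. Its relative Nrp2 was at 132 and 117 CPM against 3.18 and 1.08 CPM. The ligand gene Pgf, of the VEGF family, was at 20.6 and 18.98 CPM in the tumour libraries and 0.187 and 0.120 CPM in the stem cell libraries (log2 fold change 6.97, SE 0.51, adjusted p = 0.00613). The VEGF receptor gene Flt1 was at 12.3 and 8.11 CPM against 0.187 and 0.964 CPM. Kdr, the main VEGF receptor of endothelium, was at 9.20 and 4.79 CPM against 0.311 and 0 CPM. Vegfc, at 0 in the stem cells, was at least 18.86-fold higher. All 6 endothelial markers rose beside these receptors, and their part in the levels of Flt1 and Kdr was not tested.

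Oncofetal genes, those of embryonic tissue that tumours switch on, rose in 6 of 9 tested cases (66.7%, against 18.6% of all genes). None fell, and the median was 4.20. Against the BK libraries 4 of 10 rose, with a median of 0.91, and against CL 5 of 10, with a median of 3.95. Of the 6 calls, 4 were made against both sets and 1 in both fits with a tumour library left out. Igf2bp1, an RNA-binding protein related to Igf2bp2, was at 15.7 and 16.9 CPM in the tumour cells and at 0 in both stem cell libraries, at least 106.1-fold higher. Lin28b, which blocks maturation of let-7 microRNAs, was at 9.87 and 5.47 CPM in the tumour libraries and 0.125 and 0.0803 CPM in the stem cell libraries (log2 fold change 6.17, SE 0.73, adjusted p = 0.00984). Hmga1, the relative of Hmga2, was at 4.05 and 3.97 CPM against 0.311 and 0.120 CPM. The noncoding H19 was at 10.98 and 9.11 CPM against 1.93 and 1.73 CPM. Igf2bp3, Igf2 and Peg10 did not pass.

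Of 20 cell cycle genes 7 rose (35%, against 18.6% of all genes) and 0 fell (median 1.59). In both tumour libraries 16 of them lay above both stem cell libraries, as did 39.5% of all genes. The G1 cyclin genes Ccnd1 and Ccne1 were apart from both stem cell libraries. Ccnd1 was at 1101 and 876 CPM in the tumour libraries and 60.6 and 116 CPM in the stem cell libraries (log2 fold change 3.45, SE 0.43, adjusted p = 0.0104). Ccne1 was at 45.3 and 52.0 CPM in the tumour libraries and 2.80 and 2.85 CPM in the stem cell libraries (log2 fold change 4.07, SE 0.26, adjusted p = 0.00542). Genes of DNA replication rose too, among them Mcm5, a subunit of the replicative helicase, at 189.7 and 166 CPM against 14.6 and 41.9 CPM (log2 fold change 2.62, SE 0.54, adjusted p = 0.0236), and Rrm2, a subunit of ribonucleotide reductase, at 156 and 143 CPM against 36.6 and 33.9 CPM. Mcm2, Tk1 and the mitotic kinase gene Plk1 were the others that rose, by 2.07, 1.75 and 2.20 on the log2 scale. Mki67 and Top2a differed between the stem cell lineages. Mki67, a marker of cycling cells, was at 192 and 142 CPM against 50.9 and 443 CPM, so that the tumour libraries lay between HFSC and EpdSC (adjusted p = 0.646). Top2a, a topoisomerase of dividing cells, showed the same order, at 239 and 240.4 CPM against 54.8 and 397 CPM. Against the BK libraries 1 cell cycle gene rose, and against CL 19. Without Tbr EpdSC 20 rose, and without Tbr HFSC 12 rose and 2 fell. Of 12 genes of the p53 family and CDK inhibitors 2 rose (16.7%) and 3 fell (25%), against 18.6% and 18.5% over all genes. Cdkn2a, which encodes the inhibitors p16 and p19, was at 82.7 and 118 CPM in the tumour libraries and 0.0623 and 0.321 CPM in the stem cell libraries (log2 fold change 8.82, SE 0.64, adjusted p = 0.00613). The neighbouring Cdkn2b, which encodes p15, was at 48.0 and 54.8 CPM against 14.4 and 6.59 CPM. Cdkn1b, the inhibitor p27, fell by 1.82 on the log2 scale (SE 0.28, adjusted p = 0.0139). Trp53 was at 86.9 and 74.7 CPM against 46.5 and 62.2 CPM and did not pass (adjusted p = 0.138).

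Genes of metabolism rose in 3 lists. The shares were 50% of glycolysis, 50% of cholesterol synthesis and 58.3% of Nrf2 and glutathione genes, against 18.6% over all genes. Of 12 glycolysis genes 6 rose and 0 fell, among them Pkm, pyruvate kinase, at 2377 and 2970 CPM in the tumour libraries and 296 and 376 CPM in the stem cell libraries (log2 fold change 2.96, SE 0.35, adjusted p = 0.00974). Ldha, lactate dehydrogenase, was at 1688 and 2487 CPM against 241 and 374 CPM. The glucose transporter gene Slc2a1 was at 603 and 722 CPM against 165 and 367 CPM and did not pass (adjusted p = 0.076). Of 12 cholesterol synthesis genes 6 rose and 0 fell, with Lss, lanosterol synthase, at 100.2 and 113 CPM in the tumour libraries and 21.7 and 19.3 CPM in the stem cell libraries (log2 fold change 2.34, SE 0.22, adjusted p = 0.00812). Of 12 Nrf2 targets and glutathione genes 7 rose and 2 fell. Slc7a11, the cystine importer, was at 55.0 and 46.2 CPM in the tumour libraries and 0.498 and 0.643 CPM in the stem cell libraries (log2 fold change 6.41, SE 0.33, adjusted p = 0.0048). Gsto1, a glutathione transferase, was at 3140 and 4412 CPM against 184 and 145 CPM. Gpx2, a glutathione peroxidase, was at 232 and 205 CPM against 6.60 and 0.884 CPM. Of the 2 that fell, Gstm1 was at 3.25 and 3.395 CPM against 49.4 and 26.7 CPM. The aldehyde dehydrogenase gene Aldh3a1 was at 6.53 and 3.90 CPM against 122 and 127 CPM (log2 fold change -4.61, SE 0.35, adjusted p = 0.00637). Nqo1, a standard Nrf2 target, missed the threshold (log2 fold change 0.84, SE 0.26, adjusted p = 0.0583). All 9 of these Nrf2 calls were made against both other stem cell sets, and 4 in both fits with a tumour library left out.

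The 2 tumour libraries were closer to each other than the 2 stem cell libraries were. Over all 14558 tested genes the median absolute log2 difference between them was 0.217, and 33 genes differed more than 4-fold, against 0.391 and 605 genes between Tbr HFSC and Tbr EpdSC. Among the 5409 called genes, which the test chose in part for a small spread within the arms, 14 genes differed more than 4-fold between the tumour libraries and 99 between the stem cell libraries. Those 14, described with no test since each genotype had 1 library, included Prl2c5, a placental hormone gene (29.3 CPM in HRas against 174 CPM in HRas TbrKO tumour cells), and Sprr2f (7.56 against 42.8 CPM), of the cornified envelope. They also included Klk13, a kallikrein protease (8.23 against 44.0 CPM), Fabp4, and, higher in the HRas library, Tpsab1, a mast cell tryptase (9.37 against 1.07 CPM), and Ces1g (13.4 against 1.36 CPM).

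Against the integrin-low cells of the HRas and HRas TbrKO tumours, 0 of 15471 genes (0%) passed edgeR's test, with 1900 at an unadjusted p under 0.05, while DESeq2 called 614. The labels pair the gates by genotype and do not say whether both came from the same tumours. With the genotype as a block, an alternative chosen after seeing the data, edgeR also called 0 genes, with 1636 at an unadjusted p under 0.05. The fibroblast sum given above was lower in the high gate in both genotypes, and in the blocked fit the median log2 difference of high minus low over the 8 fibroblast markers was -2.56. Hmga2 was at 409 and 257 CPM in the low gates of the HRas and HRas TbrKO tumours and Itgb1 at 1885 and 1182 CPM. Both were lower than in the high gate of the same genotype.

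Against the TbrKO tumours, 3023 of 15471 genes (19.5%) differed, 1491 higher (9.64%) and 1532 lower (9.9%) in the HRas-bearing cells. The TbrKO arm joined an integrin-high and an integrin-low library, so gate and genotype are not matched in it. Leaving out 1 library left 353 calls without the HRas tumour, 116 without the HRas TbrKO tumour, 753 without the high and 1022 without the low TbrKO library. This comparison shares the tumour libraries with the one against the stem cells, so values are given side by side. Il24 was at 5.94 and 2.99 CPM in the TbrKO tumours (log2 difference 6.79, SE 0.49, adjusted p = 0.00229), Igf2bp2 at 12.5 and 14.2 CPM (log2 difference 4.12, SE 0.48, adjusted p = 0.00646) and Krt20 at 0.738 and 1.88 CPM (log2 difference 6.15, SE 0.61, adjusted p = 0.00467). These 3 levels were near those of the stem cells or well below the HRas-bearing tumours. Spp1, at 45.8 and 201 CPM, and Col3a1, at 584 and 1855 CPM, overlapped the HRas-bearing tumours and did not pass (adjusted p = 0.448 and 0.288). Krt77, at 9.49 and 16.2 CPM, was low in all tumours (adjusted p = 0.0899), as was Zbtb16 (2.62 and 0.940 CPM, adjusted p = 0.438). Dapl1, by contrast, was at 28.2 and 163 CPM, between the HRas-bearing cells and the stem cells (log2 difference -5.58, SE 0.87, adjusted p = 0.0111). Of the 20 cell cycle genes 14 were higher in the HRas-bearing than in the TbrKO tumour cells, against 9.64% of all genes.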

How the data were processed

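RNA had been read from sorted mouse skin cells, and the authors deposited unnormalised read counts for each gene symbol, per the file headers. Per the submitters' processing notes STAR was used for RNA, and Bowtie, Picard and MACS2 2.1.1.20160309 for ATAC-seq, with build mm10. The sources used here do not say whether counting used strand or how shared reads were handled. The table held 24061 gene symbols in 21 libraries (14 symbols had been turned into dates), every column was matched to a sample by its library number or title, and a line of totals was left out. Peak lists gave a pileup signal and a fold enrichment (a ratio over the local background) per peak, both as deposited by the authors, with 1 pooled list per population, and a start site counted as open where a peak lay within 1 kb of it. Start sites were known for 78.2% of tested genes, under the minimum of 80%, so a check of peak shares over all genes is void and none is given.

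The main test, on the 2 tumour and 2 stem cell libraries, was that of edgeR 4.0.16 under R 4.3.3 (TMM, filterByExpr, quasi-likelihood F test, Benjamini-Hochberg adjustment, threshold 0.05). An adjusted p with no tool named comes from that test, and an SE is the absolute log2 fold change over the root of the F statistic. The integrin-low and TbrKO contrasts came from a fit of the 8 libraries of the tumour set. Counts of the 2 libraries of an arm differed beyond sampling noise (chi-square over its degrees of freedom 73.05 for the tumour and 192.9 for the stem cell arm). With all libraries of an arm at 0, a fold is a lower bound. It sets the mean of the other arm against 3 counts per library, which covers counting error only. On simulated counts with 200 changed genes, the test recovered 0% of 2-fold changes (14258 genes), 28% of 4-fold changes (14261 genes, 13.8% of calls false) and 84% of 16-fold changes (14252 genes, 7.69% false).

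Named genes were the 15 in each direction that passed the threshold with the largest gap between the arms, log2((lowest library of the high arm + 1)/(highest library of the low arm + 1)) in CPM, and the members of 39 lists. Some list members are not reported here. The comparison, members and lists were chosen with earlier results of these data known. Alternatives were DESeq2 1.42.0 and its size factors, other filters, larger fits, other reference stem cells, a fold threshold and each library left out.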

Additional observations from a re-analysis of the deposited data

Results flagged for a closer look

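Among the genes furthest from the stem cells, those given here also differed between the HRas-bearing integrin-high and the TbrKO tumour cells at an adjusted p under 0.05 (edgeR, fit of 8 libraries). Both comparisons share the tumour libraries, so the values are a description of the second one alone. They are log2 differences of HRas-bearing minus TbrKO tumour cells. Among the higher genes Hmga2 had the largest, 8.14, followed by Il24 at 6.79, Padi3 at 5.08, Igf2bp2 at 4.12 and Car2 at 3.92. Prkg2 was at 3.39, Padi4 and Upk3bl at 3.31 each, Krt18 at 2.62 and Gsta4 at 2.53. Among the lower genes Bbox1 was at -6.51, Dapl1 at -5.58 and Skint5 at -4.29. Eppk1 was at -3.98, Scel at -3.7, Dsg1a at -3.4, Wdr65 at -2.23 and Ackr4 at -1.85. The TbrKO arm joined an integrin-high and an integrin-low library, and the part of the gate in these differences was not tested.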

How the results depend on the processing

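The count of 5409 genes ranged from 258 to 7983 with 1 library left out, the count of higher genes from 192 to 4195 and of lower genes from 66 to 3788; the low ends came from leaving out a tumour library, where only the 2 stem cell libraries give the spread, and the share higher was then 69.8% (without HRas) and 74.4% (without HRas TbrKO) against 50.1%. Against BK stem cells 1574 genes were lower, and against CL stem cells 4137 were higher. DESeq2 called 614 genes against the integrin-low cells, where edgeR called 0, also 0 with each library left out and 0 with the genotype as a block, and 4860 against TbrKO tumours. The TbrKO contrast ranged from 116 to 1022 calls with 1 library left out, an alternative chosen after seeing the data. Of the 30 named genes 28 were called against both BK and CL, all but Flg2 and Lce1m. Of the 224 called genes named or listed 149 were called against both. The named genes were chosen for wide gaps in the same tumour libraries, which favours such repeats.

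Of the listed genes 25 changed sign where either fit passed the threshold. Against BK these were Hras (-0.036), Hes1 (0.65), Cd151 (-0.36) and Insig1 (1.05), and against CL Notch1 (-1.11), Itgb6 (0.11), Btc (2.66), Notch3 (-0.76) and Angptl4 (1.12). With 1 library left out, the log2 fold change ranged from -4.57 to 3.66 for Cd34, from -1.72 to 1.02 for Sox9, from -1.60 to 2.21 for Tcf7l1, from -2.58 to 1.14 for Foxc1, from -4.59 to 1.74 for Aspn, from -2.49 to 1.52 for Calml3, from -4.72 to 3.35 for Ltbp2, from -2.11 to 2.45 for Id2, from -1.79 to 2.11 for Smad6, from -1.50 to 7.59 for Nkd1 and from -0.75 to 2.14 for Top2a, the sign changing without Tbr HFSC. It ranged from -0.75 to 0.79 for Klf5, from -1.38 to 1.33 for Bmp3, from -1.004 to 1.98 for Wnt3a, from -1.43 to 1.72 for Mki67 and from -1.49 to 0.68 for Dsg2, the sign changing without Tbr EpdSC. The cause was not tested. Signs also changed 180 times, in 97 genes, where neither fit passed. No paired analysis was possible because the 4 libraries carry no replicate numbers and each group has 1 library. The simulation shows that depth and design leave 2-fold changes undetected.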

Other observations

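Genes of interferon response, cell junctions, the sebaceous gland and the hair shaft were read as well. Of 11 tested interferon response genes 1 rose and 1 fell (9.09% each way, against 18.6% and 18.5% over all genes). Bst2, a membrane tether of viruses, rose (15.9 and 21.1 CPM against 6.29 and 7.63 CPM). Irf9, a transcription factor of interferon signalling, fell (15.4 and 25.1 CPM against 41.6 and 49.9 CPM). Of 12 desmosome and tight junction genes 2 rose (16.7%) and 1 fell (8.33%), also no more than the shares over all genes. Dsc2, a desmosomal cadherin, was at 250.3 and 457 CPM in the tumour cells against 6.73 and 13.6 CPM, and Cldn4, a claudin, at 418 and 598 CPM against 88.0 and 36.8 CPM. Cldn1, the main claudin of the epidermal barrier, fell from 352 and 579 CPM to 62.0 and 102 CPM. Of 5 tested genes of the sebaceous gland, Fasn, fatty acid synthase, rose, at 441 and 399 CPM against 85.0 and 146 CPM, as did Pparg. Scd1, the stearoyl-CoA desaturase, fell, at 161 and 72.3 CPM against 401 and 327 CPM. None of these 3 sebaceous gland calls was made against both the BK and the CL stem cells. Of 4 tested hair matrix and shaft genes the homeobox gene Msx2 fell, at 0.368 and 0.0715 CPM against 4.05 and 4.38 CPM, and Krt85 was at 0 in all 4 libraries.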
